A study of Bos grunniens x Bos taurus and Bos grunniens with 6 samples.

Results

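The 9 genes described here act at the strand exchange step of meiosis. They were DMC1, MND1, PSMC3IP, MEIOB, SPATA22, HSF2BP, BRCA2, SWI5 and SFR1, chosen by symbol and not by their values, out of 18918 genes in the deposited testis table. Each symbol stood on 1 gene, so that 9 genes were followed and none was missing. RNA-seq had been done on testis tissue of 3 cattle-yak, here C1 to C3, and 3 yak, here Y1 to Y3, with 1 library per animal and every animal 4 years old. The cattle-yak were F1 males from a Jersey bull and a Gannan yak cow, and the yak were Gannan males. The groups were kept in different counties, and the cattle-yak testes came from castration. For yak the labels also give castration, while the methods of the study give euthanasia. These conditions and the genotype cannot be told apart.

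In meiotic prophase the broken ends of chromosomes are cut back to single strands, which are first covered by the protein RPA. Recombinases then replace RPA, form a filament on the strand and search the partner chromosome for the matching sequence, so that the strand can be exchanged. In the testis this takes place in primary spermatocytes. DMC1 is the recombinase found only in meiosis, while the other 8 proteins load it, stabilise its filament or protect the strand. BRCA2, SWI5, SFR1 and PSMC3IP are also known outside meiosis, since dividing cells repair broken chromosomes in a similar way.

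The FPKM values (fragments on a gene, scaled to its length and to the depth of the library) rested on 11175100 to 11834987 fragments on genes in cattle-yak and 12991641 to 13136129 in yak, without overlap of the groups (exact permutation test, two-sided, p = 0.1, the smallest p that 3 animals against 3 allow). Testis identity was clear in both groups, with the Leydig cell gene INSL3 at 3282 to 12070 FPKM. All 8 genes of a Sertoli cell list were called higher in cattle-yak, where their summed FPKM was 1267 to 1503 against 203 to 277 in yak. All 7 detected genes of an elongating spermatid list were called lower, with sums of 57.5 to 184.8 against 9879 to 11890 FPKM, and none of these was at 0 in any library. The 9 genes of a spermatogonia list summed to 737 to 942 FPKM in cattle-yak, above the 179 to 247 FPKM of yak. In bulk tissue fewer cells of a type and less RNA per cell cannot be told apart. The part of these cell types in the results below was not tested.

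Of the 9 genes, HSF2BP and MND1 were downregulated in cattle-yak, and no gene was upregulated past both thresholds, so that 2 of 9 were called where 54.2% of all tested genes were. A gene was called when limma gave a Benjamini-Hochberg adjusted p under 0.05 over the 15042 tested genes and a log2 (foldchange) of (FPKM + 1) beyond 1. Among all tested genes 20.8% were called lower and 33.4% higher, so the 2 of 9 genes called lower were close to the share of all genes, while 0 of 9 stood against that 33.4%. By the adjusted p alone 4 of the 9 genes passed, against 81.9% of all tested genes. The groups did not overlap for 3 genes that were lower and 1 that was higher in cattle-yak, compared with 30.2% and 53.9% of all tested genes. The median log2 (foldchange) of the 9 genes was −0.28, compared with 0.51 over all genes tested. Together they summed to 209.5, 128.7 and 192.4 FPKM in C1, C2 and C3 and to 242.9, 242.9 and 261.5 in Y1, Y2 and Y3. Each library of cattle-yak thus had a lower sum than every yak library, with C2 the lowest.

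**Figure D1:**
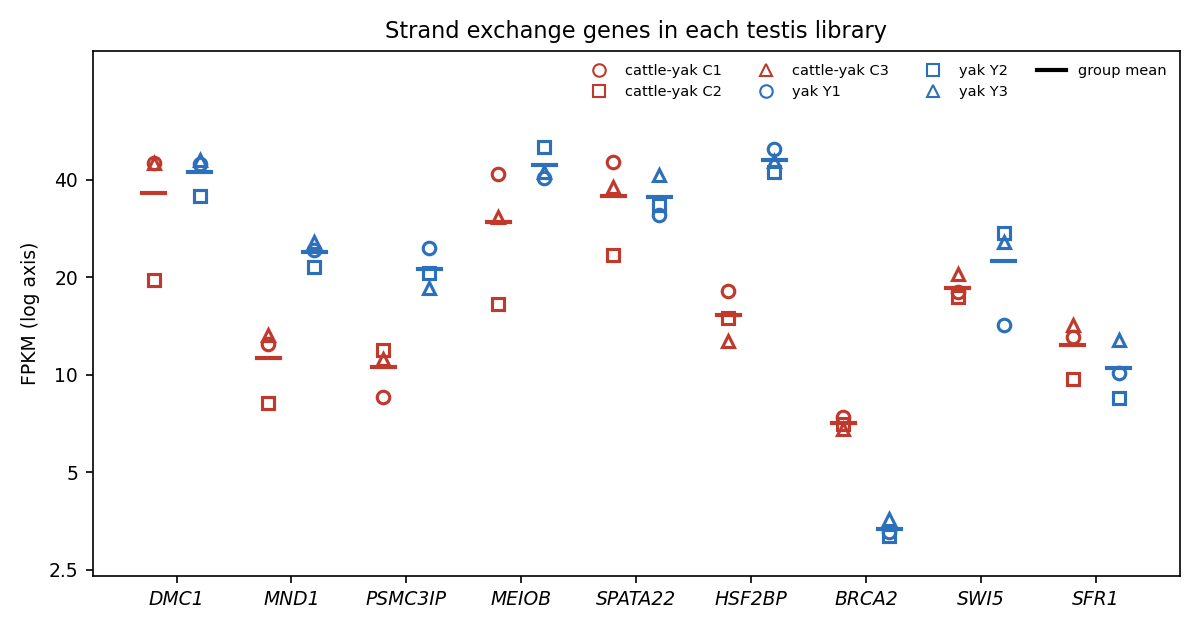
FPKM (log axis) of the 9 strand exchange genes in each library, with cattle-yak in red, yak in blue, a symbol for each animal and a bar for the group mean. HSF2BP, MND1 and PSMC3IP lie lower and BRCA2 higher in all 3 cattle-yak libraries, while the groups overlap for the other 5 genes.

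DMC1 (ENSBGRG00000002636), the meiotic recombinase, stood at 45.0, 19.6 and 44.9 FPKM in C1, C2 and C3. The yak values were 44.7, 35.5 and 46.1 FPKM in Y1, Y2 and Y3. C1 and C3 thus lay within the range of the yak libraries and only C2 below it, with 267 fragments where the other cattle-yak libraries had 650 and 636. The exact 95% counting interval of C2, 17.3 to 22.1 FPKM, stayed below those of C1 and C3, which began at 41.6 and 41.5. Cattle-yak averaged 36.5 ± 14.7 FPKM, compared with 42.1 ± 5.76 for yak (SD, n = 3 each). The log2 (foldchange) of −0.28 did not pass the threshold (95% interval −0.97 to 0.40, adjusted p = 0.394 from limma), and without C2 it was 0.10. With FPKM as deposited, a decrease to the level seen for HSF2BP lay outside the interval, but one by 0.97 on the log2 scale did not. These limits moved with the scaling of the libraries, described below. With median-of-ratios scaling the interval of DMC1 was −1.585 to −0.189, and HSF2BP was at −2.13.

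MND1 and PSMC3IP form the complex, also called HOP2-MND1, that helps the DMC1 filament to capture and invade the partner DNA. The FPKM of MND1 (ENSBGRG00000016798) was 12.4, 8.16 and 13.3 in C1, C2 and C3. In Y1, Y2 and Y3 it was 24.3, 21.5 and 25.7. The groups did not overlap, as in 84.1% of all tested genes, and C2 was again the lowest. The decrease had a log2 (foldchange) of −1.04 (SE 0.18, limma adjusted p = 7.6e-04). The call was lost without C2 (−0.84) and without Y3 (−0.98), with the adjusted p still under 0.05 in both.

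PSMC3IP (ENSBGRG00000009431) stood at 8.53, 11.9 and 11.2 FPKM in C1, C2 and C3. The yak values were 24.7, 20.7 and 18.5 FPKM in Y1, Y2 and Y3. Here C1, and not C2, was the lowest of the cattle-yak libraries, and the groups did not overlap. These values rest on 66, 87 and 85 fragments in cattle-yak, the fewest of the 9 genes, so the counting interval of C1 (6.60 to 10.9 FPKM) overlapped those of C2 and C3. Its log2 (foldchange) was −0.95 (SE 0.16, limma adjusted p = 6.5e-04), just short of the threshold of 1 in size. It went past −1 with the smaller pseudocounts of 0.1 and 0.01 (−1.01 and −1.02), without C2 (−1.04) and without Y3 (−1.04). The mean in yak was 2.02 times that in cattle-yak, close to the 2.11 times of MND1.

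MEIOB and SPATA22 bind each other and, together with RPA, the single strands of meiotic breaks. For MEIOB (ENSBGRG00000026058) C1, C2 and C3 gave 41.6, 16.5 and 30.6 FPKM, while Y1, Y2 and Y3 gave 40.6, 50.5 and 42.2. C1 stood within the yak range, C3 below it and C2 lowest. The spread in cattle-yak was the widest of the 9 genes in relative terms, with an SD of 42.5% of the mean. The log2 (foldchange) was −0.66 (95% interval −1.32 to 0.01, adjusted p = 0.0625 from limma), not past the threshold. It was −0.30 without C2 (limma adjusted p = 0.14) and −0.94 without C1 (limma adjusted p = 6.3e-03), and limma voom on fragments, added after seeing the data, gave −0.67 (adjusted p = 0.0383). The study, with DESeq on read counts, reported MEIOB as significantly downregulated. With median-of-ratios scaling MEIOB was called lower here as well (−1.26, limma adjusted p = 4.9e-03).

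For SPATA22 (ENSBGRG00000022199) the FPKM was 45.4, 23.4 and 38.1 in C1, C2 and C3, next to 31.2, 33.4 and 41.2 in Y1, Y2 and Y3. C1 exceeded every yak library and C2 was below every one. The group means were 35.6 ± 11.2 FPKM for cattle-yak and 35.2 ± 5.29 for yak (SD, n = 3 each). On the log2 scale of single libraries, limma gave a difference of the other sign, −0.02 (95% interval −0.56 to 0.51, adjusted p = 0.923). It was 0.24 without C2 and 0.09 without Y3, so no direction can be given.

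HSF2BP (also called MEILB2) binds BRCA2 and brings it to meiotic breaks. C1, C2 and C3 had 18.1, 15.0 and 12.7 FPKM of HSF2BP (ENSBGRG00000020817), and Y1, Y2 and Y3 had 49.7, 42.2 and 45.8. By mean FPKM it was the highest of the 9 genes in yak and the fifth in cattle-yak, where C1, C2 and C3 reached 39.5%, 32.6% and 27.6% of the yak mean. At −1.54 in log2 (foldchange) (SE 0.14, limma adjusted p = 1.7e-05), it showed the largest decrease of the 9 genes. It remained called lower under every alternative that was tried, with values from −3.84 to −1.09.

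BRCA2 (ENSBGRG00000014675), which loads recombinases onto single strands, went the other way. Its FPKM was 7.43, 7.07 and 6.82 in C1, C2 and C3, but 3.27, 3.17 and 3.59 in Y1, Y2 and Y3. The groups did not overlap, and the SD within a group was at most 6.55% of the mean, the narrowest spread of the 9 genes in each group. The cattle-yak mean was 2.13 times the yak mean, while the log2 (foldchange) of (FPKM + 1) was 0.90 (SE 0.13, limma adjusted p = 2.5e-04), under the threshold. The pseudocount of 1 lowers this value at so low a level, and it became 1.07 and 1.09 with pseudocounts of 0.1 and 0.01. BRCA2 rose by 0.39 more than the median of all tested genes.

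SWI5 and SFR1 form a complex that stabilises recombinase filaments. SWI5 (ENSBGRG00000010054) stood at 18.0, 17.3 and 20.5 FPKM in C1, C2 and C3. In Y1, Y2 and Y3 it stood at 14.3, 27.3 and 25.7 FPKM. Y1 was below every cattle-yak library while Y2 and Y3 were above every one, so the wide spread was among the yak. For SFR1 (ENSBGRG00000012483) C1, C2 and C3 gave 13.0, 9.72 and 14.2 FPKM, and Y1, Y2 and Y3 gave 10.2, 8.51 and 12.8. The libraries of the groups were interleaved. Neither gene passed the threshold, at −0.21 in log2 (foldchange) for SWI5 (95% interval −0.73 to 0.31, limma adjusted p = 0.41) and 0.22 for SFR1 (95% interval −0.22 to 0.65, limma adjusted p = 0.307). The value of SWI5 was −0.49 without Y1 (limma adjusted p = 0.0108), but −0.05 without Y2 and −0.09 without Y3 (limma adjusted p = 0.864 and 0.755).

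FPKM is per length of the gene model, from 654 bases for PSMC3IP to 10676 for BRCA2. An order between genes thus also depends on these models, which were not tested. By mean FPKM, yak had HSF2BP, MEIOB, DMC1 and SPATA22 at 45.9 to 35.2 FPKM. Neighbours among these 4 genes overlapped in their ranges. MND1, SWI5 and PSMC3IP followed at 23.9 to 21.3 FPKM, then SFR1 at 10.5 and BRCA2 at 3.34, and the range of SFR1 overlapped neither that of PSMC3IP nor that of BRCA2. In cattle-yak the order was DMC1, SPATA22, MEIOB, SWI5, HSF2BP, SFR1, MND1, PSMC3IP and BRCA2, from 36.5 to 7.11 FPKM. There every gene overlapped its neighbour except PSMC3IP and BRCA2. Among all genes of a library, DMC1 stood at percentiles 85.4, 69.5 and 85.5 in C1, C2 and C3, and between 81.8 and 85.1 in yak. HSF2BP stood at 61.6 to 67.9 in cattle-yak and at 84.2 to 86.2 in yak.

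**Figure D2:**
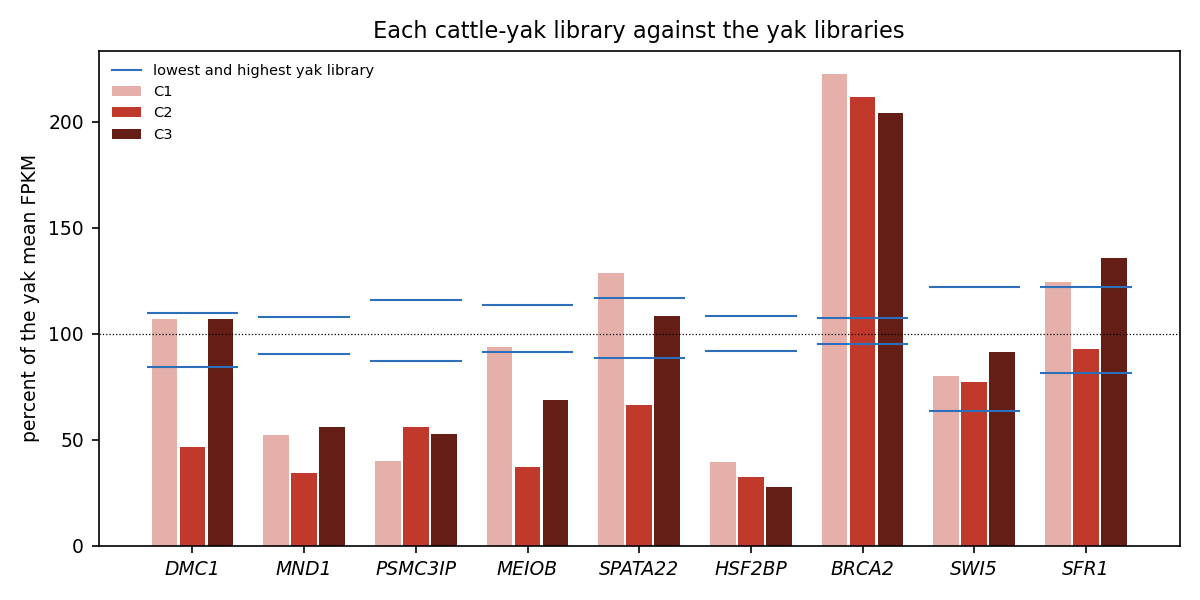
FPKM of each gene in C1, C2 and C3 as a percentage of its mean in yak, with blue lines at the lowest and highest yak library. C2 is at 46.5% for DMC1 and 37.2% for MEIOB, where C1 is at 106.9% and 93.6%, while BRCA2 is at 204.1% to 222.3% in all 3.

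The cattle-yak libraries differed among themselves in the same manner for several of these genes. C2 had the lowest value of the 3 for 6 of the 9 genes, against 28.0% of all tested genes. It stood at 43.5% of the mean of C1 and C3 for DMC1, 45.8% for MEIOB, 56.2% for SPATA22 and 63.4% for MND1, but at 97.2% for HSF2BP, 99.3% for BRCA2 and 120.7% for PSMC3IP. C2 was also the lowest cattle-yak library for 7 of the 8 detected genes of a list of chromosome axis and synapsis genes (such as SYCP1 and SYCP3, which build the synaptonemal complex). The summed FPKM of that list was 521.1, 307.5 and 404.9 in C1, C2 and C3, and 620.6 to 690.7 in yak, with 1 gene called higher, 2 lower and none at 0. SYCP3 was the gene called higher (log2 (foldchange) 1.10), and SYCE1 (−2.10) and HORMAD2 (−2.04) were those called lower. SYCP1 (0.24) was not called. HSF2BP was instead highest in C1 and lowest in C3. The summed FPKM of the late spermatocyte list had the same order (264.6, 184.9 and 128.8 in C1, C2 and C3). So did that of the round spermatid list (46.0, 28.3 and 8.99, with SPACA4 at 0 in C3). The order was not limited to late germ cell lists. The Leydig cell list, with all genes found called higher in cattle-yak, had it too (12420, 11850 and 10430 FPKM). AURKC of the late spermatocyte list differed, with its highest value in C2 (38.9 FPKM). How often all tested genes had the order of HSF2BP was not tested. BRCA2 was also highest in C1 and lowest in C3, but its counting intervals in C1 (6.96 to 7.92 FPKM) and C3 (6.37 to 7.30 FPKM) overlapped. In yak the late spermatocyte list summed to 1529 to 1593 FPKM, with 5 of 6 genes called lower in cattle-yak and none at 0. The list of dividing cells, which includes TOP2A and PCNA, summed to 335.8, 303.1 and 341.6 FPKM in C1, C2 and C3 and to 263 to 291 in yak. Of its 6 genes 1 was called higher, MCM2 (log2 (foldchange) 1.25), while TOP2A (0.28) and PCNA (−0.115) were not called. In this list 5 of the 6 genes were lowest in C2. By contrast, C2 was lowest for 0 of 8 Sertoli cell genes and 0 of 6 myoid cell genes. It had the highest sums of the cattle-yak libraries for both lists, 1503 and 781.8 FPKM, and the median gene stood at 116.8% and 129.0% of the mean of C1 and C3. The part of these lists in the low values of C2 was not tested.

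The direction of most of the 9 genes depended on what the libraries were scaled to. As the median of all genes lay at 0.51, the size factors of the median-of-ratios method, with which that median became 0.01, lowered each gene. With it 4 of the 9 genes were called lower (HSF2BP −2.13, MND1 −1.62, PSMC3IP −1.53 and MEIOB −1.26). By the adjusted p alone DMC1 (−0.89), SWI5 (−0.80) and SPATA22 (−0.63) were lower as well (limma adjusted p = 0.0262, 0.0145 and 0.0401). BRCA2 kept an increase of 0.39 (adjusted p = 0.0217 from limma), under the threshold. Under this scaling 27.7% of all tested genes were called lower and 17.7% higher. Set against the axis and synapsis genes, which belong to the same stage of meiosis, HSF2BP was called lower (−1.09), BRCA2 higher (1.35), and DMC1, SPATA22 and SWI5 had values of 0.16, 0.42 and 0.24. The genes of that list did not move together, from −2.10 for SYCE1 to 1.10 for SYCP3, so these values depend on which genes were listed. With this centring 15.9% of all tested genes were called lower and 48.6% higher. Set against the Sertoli cell genes, all 9 were called lower, from −3.84 for HSF2BP to −1.39 for BRCA2, but so were 76% of all tested genes, with 0.186% higher.

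**Figure D3:**
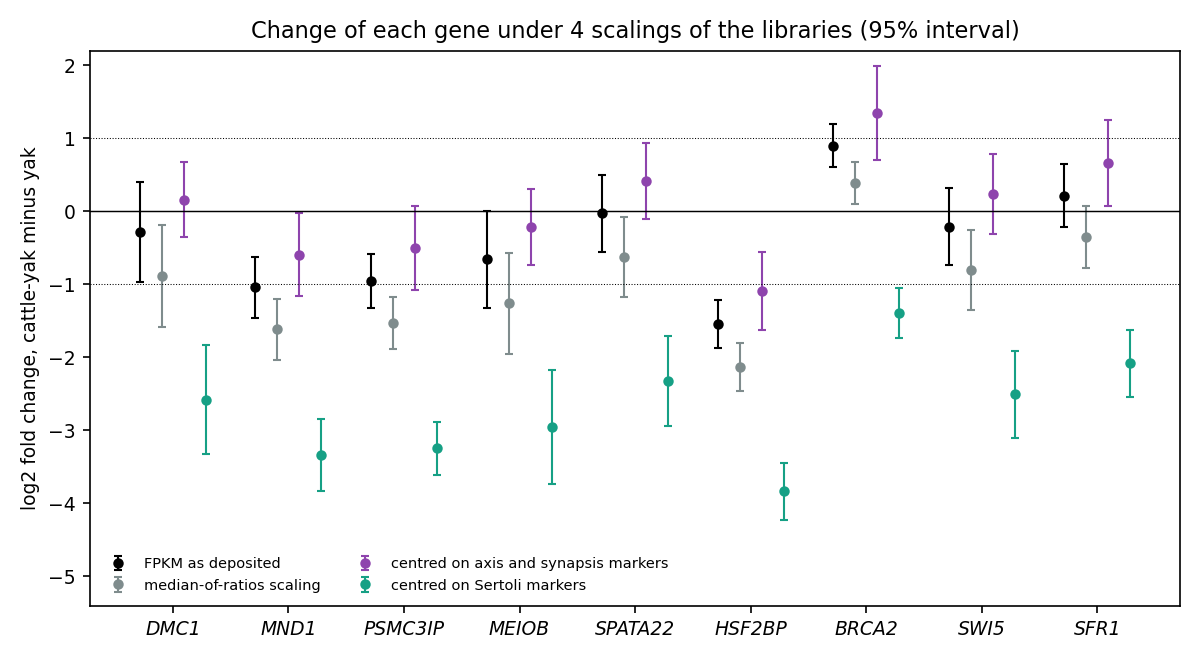
Log2 fold change of (FPKM + 1), cattle-yak minus yak, with its 95% interval from limma for each gene under 4 scalings of the libraries, with dotted lines at −1 and 1. HSF2BP lies below −1 under all 4, from −3.84 to −1.09, whereas DMC1 lies between −2.58 and 0.16.

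A ratio of 2 genes within a library does not depend on such scaling, so the partners of each complex were also compared with each other. The HSF2BP to BRCA2 ratio of FPKM was 2.44, 2.12 and 1.86 in C1, C2 and C3, and 15.2, 13.3 and 12.8 in Y1, Y2 and Y3. The groups were far apart, by a factor of 6.46 (exact permutation test, two-sided, p = 0.1, the smallest possible, and 0.2 after Benjamini-Hochberg adjustment over 4 pairs). As HSF2BP was lower and BRCA2 higher without overlap, their ratio had to separate the groups. The test therefore adds nothing to the results of the single genes. For MEIOB to SPATA22 the ratio was 0.917, 0.705 and 0.804 in C1, C2 and C3, and 1.30, 1.51 and 1.02 in Y1, Y2 and Y3. SPATA22 thus exceeded MEIOB in every cattle-yak library and MEIOB exceeded SPATA22 in every yak library, also with p = 0.1 in the exact permutation test and 0.2 after adjustment. In C1 and in Y3 the counting intervals of MEIOB and SPATA22 overlapped, so their order there is uncertain.

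The MND1 to PSMC3IP ratio was 1.46, 0.686 and 1.19 in C1, C2 and C3, and 0.986, 1.04 and 1.39 in the yak libraries. The groups overlapped (exact permutation test, two-sided, p = 0.9), and the mean log2 ratio of cattle-yak was 0.09 below that of yak but 0.22 above it without C2 and 0.06 above it without Y3. For SWI5 to SFR1 the cattle-yak ratios, 1.38 to 1.78, again overlapped those of yak, 1.41 to 3.21 (exact permutation test, two-sided, p = 0.3).

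**Figure D4:**
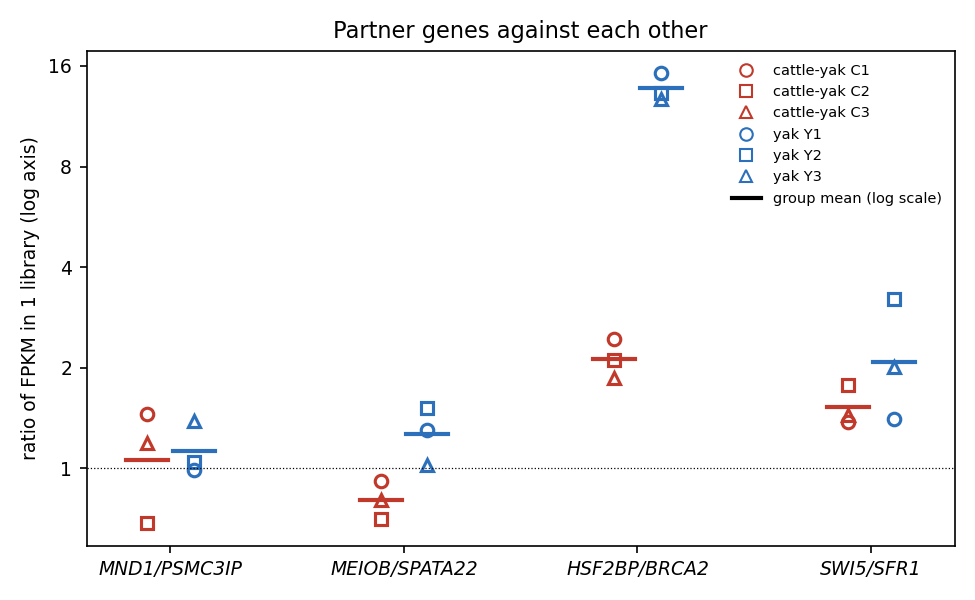
Ratio of FPKM of partner genes within each library (log axis), with cattle-yak in red, yak in blue and a bar at the mean of the log ratios. The groups are separate for HSF2BP to BRCA2 and for MEIOB to SPATA22 and overlap for the other 2 pairs.

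Of 33 further genes of the pathway, 30 were found and tested, of which 8 were called higher, 3 lower and 19 neither. Both counts were below the shares of all tested genes, 33.4% higher and 20.8% lower. With the adjusted p alone 21 were higher and 3 lower, where 52.6% of all tested genes were higher and 29.2% lower. Their log2 (foldchange) had a median of 0.68, above the 0.51 of all genes tested. After median-of-ratios scaling none of the 8 genes was called higher any more, while the 3 lower genes stayed lower. Without C2, TEX15 was no longer called lower (−0.92), while RAD51AP2 (1.14), FIGNL1 (1.06) and FIRRM (1.06, listed as C1ORF112), which acts with FIGNL1, were called higher.

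The RPA subunits, which cover the single strands before the recombinases do, were upregulated. RPA1 stood at 60.7 ± 4.19 FPKM in cattle-yak against 25.8 ± 1.87 (SD, n = 3 each), a log2 (foldchange) of 1.20. RPA3 had 1.07, and of 2 genes listed as RPA2 the more abundant was just past the threshold (124.7 against 61.2 FPKM). The less abundant RPA2 gene, with 2.91 against 0.258 FPKM, is uncertain. PALB2, which ties BRCA2 to BRCA1, rose by 1.32 in log2 (foldchange) (limma adjusted p = 1.5e-05), from 7.06 ± 0.40 FPKM in yak to 19.2 ± 1.45 (SD, n = 3 each). BRCA1 (0.64), the small BRCA2 subunit SEM1 (0.68 for the more abundant of 2 genes, which are uncertain) and BRME1 (0.47, listed as C19ORF57), a partner of HSF2BP, did not pass the fold threshold. BRCA2 thus stood among 5 partners with log2 (foldchange) values from 0.43 to 1.32, and HSF2BP at −1.54. After median-of-ratios scaling PALB2 kept 0.755 and BRCA2 0.39. BRCA1, SEM1, BARD1 and BRME1 were then at 0.054, 0.062, −0.044 and −0.09, and HSF2BP at −2.13.

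Among the helpers of the recombinases, RAD51AP1 and RAD54L had log2 (foldchange) values of −0.11 and −0.16 and overlapped between the groups. RAD51AP2, which in mammals is known mainly from the testis, had 6.39, 2.90 and 6.07 FPKM in C1, C2 and C3 and 1.96, 2.36 and 2.52 in Y1, Y2 and Y3. It was lowest in C2, as DMC1 was, but every cattle-yak library lay above the yak libraries (log2 (foldchange) 0.85, adjusted p = 0.0134 from limma), as for 53.9% of all tested genes. C2 and Y3 were close and rested on only 106 and 107 fragments, so their order is uncertain. RAD54B had 0.64, and FIGNL1, which removes recombinases from DNA, 0.96, both short of the threshold.

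The recombinase paralogs XRCC2 (1.44) and RAD51C (1.41) had the largest increases of the list. ZSWIM7 had the largest decrease, from 296.2 ± 30.5 to 74.0 ± 23.6 FPKM (SD, n = 3) or −2.03 in log2 (foldchange) (limma adjusted p = 2.7e-05). Its partner in the mammalian Shu complex, SWSAP1, was called higher, at 1.22, so these partners moved apart as HSF2BP and BRCA2 did. HROB (listed as C17ORF53), which recruits the MCM8-MCM9 helicase, fell by 1.35 on the log2 scale, while MCM8 and MCM9 had 0.90 and 0.51. TEX15, needed for recombinase foci in mice, fell by 1.09 on the log2 scale, with 23.8, 14.6 and 18.8 FPKM in C1, C2 and C3 and 38.7, 39.3 and 44.9 in Y1, Y2 and Y3. SPIDR and MCMDC2 were not analysed here.

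**Figure D5:**
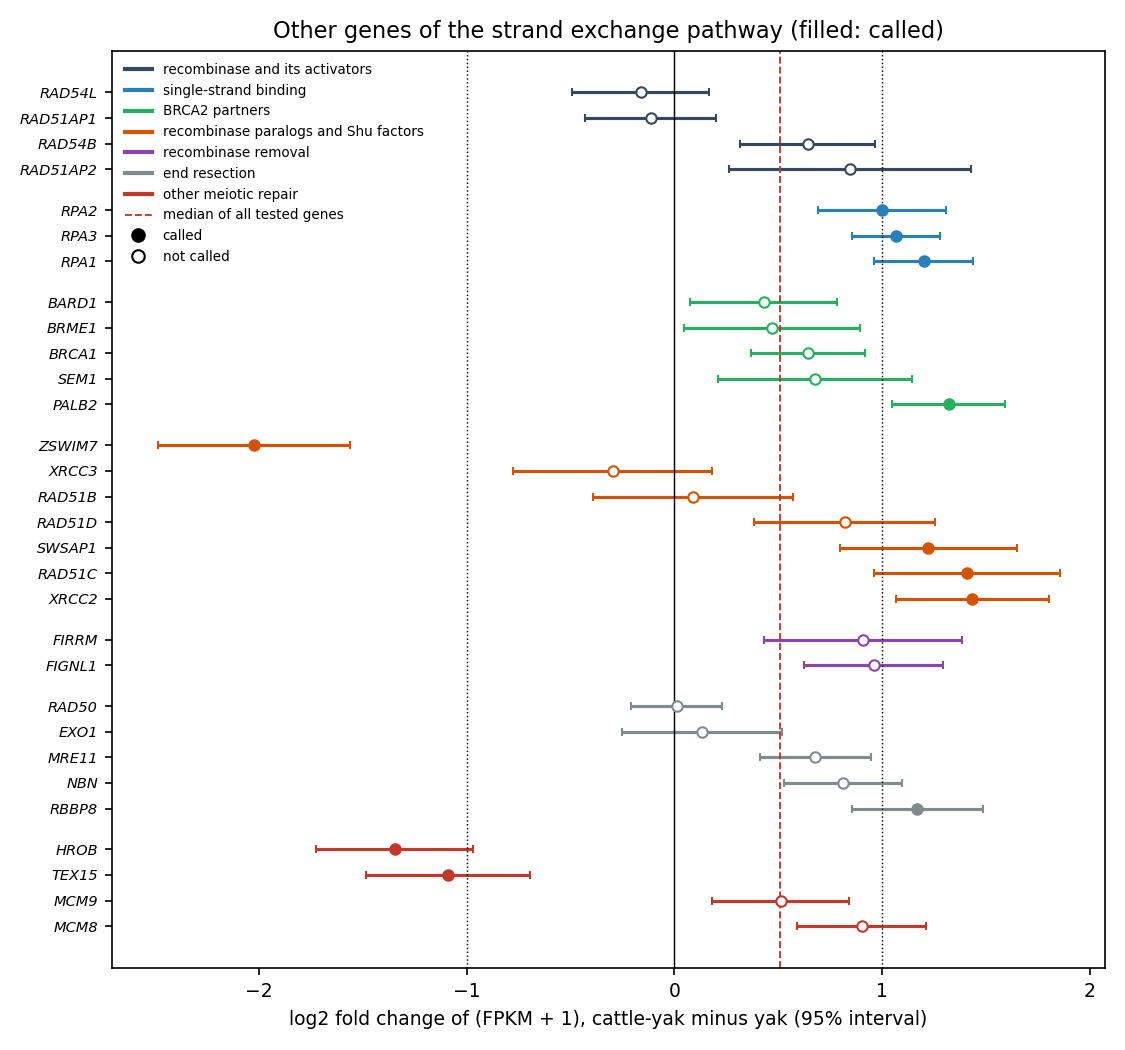
Log2 fold change of (FPKM + 1), cattle-yak minus yak, with its 95% interval from limma for the 30 other genes of the pathway, coloured by role, with filled points for called genes and a dashed line at the median of all tested genes (0.51). ZSWIM7, HROB and TEX15 lie below −1 and 8 genes above 1.

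The genes with the most similar pattern were sought by the Euclidean distance between centred log2 (FPKM + 1) profiles over the 6 libraries. The nearest gene was HACE1 for BRCA2 (distance 0.056), GDPD1 for HSF2BP (0.119), PPP4R3B-B for MND1 (0.124) and WASHC3 for SFR1 (0.124). MEST followed for SPATA22 (0.159), LIMD2 for PSMC3IP (0.219), CENPN for MEIOB (0.265), PIH1D1 for SWI5 (0.335) and AAMDC for DMC1 (0.358). In second place were ZNF281, MORN1, PCLAF, FBXL2, MAFF, FOXE1, PRC1, KCNE3 and RAD9B in the same order, at 0.079 to 0.374. Within the 9 genes the closest pair was SPATA22 and SFR1 (0.541). MND1 and PSMC3IP were 0.816 apart, with C2 the lowest cattle-yak library for MND1 and C1 for PSMC3IP.

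The annotation deposited with the values grouped the 9 genes only in part. Reciprocal meiotic recombination was given for MND1 and PSMC3IP, out of 13 genes in the table. Synapsis was given for MEIOB and SPATA22, out of 15, and double-strand break repair via homologous recombination for MEIOB, SWI5 and SFR1, out of 53. DMC1 and BRCA2 had no GO term, as 2757 genes of the table, so a search of the table by these terms would miss them.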

How the data were processed

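RNA-seq libraries of testis from 3 cattle-yak and 3 yak were compared. Per the methods of the study, reads were trimmed with Trimmomatic and mapped with HISAT2 to the yak genome LU_Bosgru_v3.0 for both groups, and the authors computed FPKM with Cufflinks. Versions were not given in the sources used here. The deposited FPKM values are per length and depth, without scaling between libraries. In cattle-yak part of the reads comes from cattle alleles, and the effect of mapping them to yak was not tested.

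Comparing FPKM between libraries gave whole fragments, gene lengths and depth for 17973 genes (100% of their values within 0.03 fragments of a whole number). Counting intervals (exact Poisson, 95%) cover counting error only. A value of 1 fragment on 1 kb stood for 0.0761 to 0.0895 FPKM. Libraries of a group differed by more than counting noise, with a mean chi-square of 11.8 to 17.7 per gene between pairs.

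A gene was tested from a mean of 0.5 FPKM upward, two-sided, on log2 (FPKM + 1) with limma 3.58.1 (lmFit, eBayes with a trend) in R 4.3.3. The study had tested read counts with DESeq, not used here, with the same thresholds. Unlike the fit here on FPKM as deposited, it reported more downregulated than upregulated genes in cattle-yak, with MEIOB among the downregulated. With median-of-ratios scaling more genes were called lower than higher here too, and MEIOB was called lower. Because of the pseudocount, changes of low genes are understated. Partner ratios were tested with the exact permutation test over animals. Python 3.11.15, numpy 2.4.6, pandas 2.3.3, scipy 1.17.1 and matplotlib 3.10.9 were used, and scripts were tested on simulated data. The labels give 1 library per animal, so p-values rest on the spread between animals. In limma with the trend, the spread of each gene is drawn toward that of genes at a similar level. With centring on the axis and synapsis list, the intervals rested on that shared spread and not on that of the single gene.

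The 9 genes and all lists were chosen with earlier results of these data known. Named genes are the 9 genes, their direct partners in a pathway list of 33 genes, the 2 genes of that list with the largest change in each direction, and the 2 genes nearest in pattern to each of the 9. Others (such as SWSAP1, MCM8, MCM9 and the marker examples) were named after their values were seen. Of symbols on several genes the most abundant gene was used. The marker lists were spermatogonia, axis and synapsis, late spermatocyte, round and elongating spermatid, Sertoli, Leydig, myoid and dividing cells. The 6 Leydig and 6 myoid genes found were all called higher in cattle-yak, the 5 round spermatid genes all lower, and 7 of 9 spermatogonia genes higher.

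The alternatives changed the pseudocount (0.1 or 0.01), the filter (none, or a mean of 5 FPKM) and the scaling (median-of-ratios, quantile or TPM), centred libraries on the Sertoli or the axis and synapsis list, dropped the trend or made the prior robust in limma, left out each animal in turn and, added after seeing the data, limma voom on the recovered fragments without and with size factors.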

Additional observations from a re-analysis of the deposited data

How the results depend on the processing

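No paired analysis was possible because the animal numbers only name the samples and the labels tie no cattle-yak to a yak. HSF2BP was called lower under every alternative, and no alternative for the filter, the variance trend or prior, or TPM scaling changed a direction or a call of the 9 genes. With pseudocounts of 0.1 and 0.01, PSMC3IP (−1.01 and −1.02) and BRCA2 (1.07 and 1.09) were called, so 1 gene was called higher. With voom on fragments, added after seeing the data, they were −1.02 and 1.09, again with 1 higher. With median-of-ratios scaling, PSMC3IP was −1.53, MEIOB −1.26 and SFR1 −0.35. Of the 9 genes 4 were then lower, of the pathway 0 higher, and of all genes 2655 higher and 4173 lower, against 5023 and 3136 here with FPKM as deposited. With voom and size factors they were −1.63, −1.30 and −0.38, with 4 lower and 1 pathway gene higher. Quantile scaling gave −1.18 for PSMC3IP and −0.079 for SFR1.

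Centring on the Sertoli list gave −2.58 for DMC1, −3.25 for PSMC3IP, −2.95 for MEIOB, −2.32 for SPATA22, −1.39 for BRCA2, −2.51 for SWI5 and −2.08 for SFR1. It left 28 genes higher and 11426 lower, 9 of the 9 genes lower, and 0 pathway genes higher and 27 lower. Centring on the axis and synapsis list gave 0.16 for DMC1, −0.59 for MND1, 0.42 for SPATA22, 1.35 for BRCA2 and 0.24 for SWI5, with 1 of the 9 genes higher and 1 lower, and 18 pathway genes higher and 1 lower. These shifts follow from the levels of the lists used.

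With each animal left out in turn, the log2 (foldchange) ranged from −0.48 to 0.10 for DMC1, −1.16 to −0.84 for MND1, −1.04 to −0.82 for PSMC3IP, −0.94 to −0.30 for MEIOB, −0.22 to 0.24 for SPATA22, −0.49 to −0.05 for SWI5 and 0.09 to 0.37 for SFR1. The counts were 4904 to 5134 genes higher and 3076 to 3192 lower, with 2 of the 9 genes lower each time (HSF2BP with PSMC3IP in place of MND1 without C2 and without Y3), 7 to 11 pathway genes higher and 2 to 3 lower, with TEX15 lost without C2. The log2 ratio of MND1 to PSMC3IP differed by −0.32 to 0.22. With a pseudocount of 1, the difference of the HSF2BP to BRCA2 log2 ratio was −2.44 in place of −2.69. PSMC3IP rested on 66 to 212 and SFR1 on 114 to 174 fragments per library. The cause of changes with single animals was not tested.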
